A study of Homo sapiens with 6 samples.

Results

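The genes described here encode amino acid carriers of the SLC1, SLC3, SLC7, SLC38 and SLC43 families, compared in SaOS-2 cells with and without induced p21. They were picked out by symbol: any name made of SLC1A, SLC7A, SLC38A or SLC43A and a number, plus SLC3A1 and SLC3A2. This gave 35 of the 23228 gene names in the table of values, and 1 further gene of the SLC7 family is not analysed here. The members were chosen with earlier results of these data known. SaOS-2 is a human osteosarcoma line that lacks RB and p53 and carries, in both conditions, a Tet-inducible p21 vector. The p21 OFF group is 3 libraries of untreated cells, and the p21 ON group is 3 libraries of cells given 1 µg/ml doxycycline for 24 h, all from cells kept in DMEM with 10% serum. Cells with doxycycline but no vector were not analysed here, so the drug and p21 cannot be told apart. The authors call their RNA-seq replicates biological, but the labels do not say that libraries came from separate cultures. The p-values therefore measure the spread between these samples, which may be technical.

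Amino acids cross membranes mainly through carriers. SLC1 proteins take up glutamate and aspartate with sodium or exchange small neutral amino acids and glutamine. Many SLC7 proteins are light chains that reach the cell surface bound to an SLC3 heavy chain, while the cationic SLC7 carriers need no partner. SLC38 proteins move glutamine, alanine and other small neutral amino acids at the cell surface or out of the lysosome, and SLC43 holds carriers of large neutral amino acids and of purine bases. Leucine, arginine and glutamine delivered by these carriers feed protein synthesis and the mTORC1 kinase complex. The factor ATF4 is known to raise transcription of several of these genes when amino acids are short.

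The libraries held 12795490 to 21975045 reads on genes. Library p21 OFF replicate 1, the shallowest, stood apart from the other two of its group, with a chi-square per gene of 8.48 and 9.28 against them where they gave 3.06 with each other. Without it 6 of the genes described here were higher in p21 ON and 2 lower, against 8 and 1 with it. Values are normalized counts, that is reads on a gene divided by a size factor of the library. Induction was plain: CDKN1A, which encodes p21, had 1266 ± 84.5 normalized counts in p21 OFF and 43691 ± 3138 in p21 ON (mean ± SD, n = 3 each, as throughout). The osteoblast markers ALPL (35363 to 38901 counts) and SPARC (19220 to 20306 counts) were abundant in all 6 libraries, as were COL1A1, SP7 and RUNX2 (lowest value 3028 counts). IBSP was low and fell from 129 ± 8.66 to 99.0 ± 3.20 counts (log2 fold change -0.38, limma adjusted p = 0.0264), while BGLAP was at 0 and COL1A2 reached only 4.87 counts. Of 7 markers of blood, endothelial and epithelial cells, 5 had a mean under 10 counts, EPCAM had 292 to 374 counts, and the summed level was 326 to 401 counts in p21 OFF and 319 to 352 counts in p21 ON. These are bulk samples, in which fewer cells of a kind and less RNA per cell cannot be told apart.

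Promoter sequence is shown for SLC1A4, the member with the smallest adjusted p-value, for the other 2 SLC1 members that hold the same 8-base motif, and for SLC38A2, the only member lower in p21 ON. The motif TTGCATCA, a composite C/EBP-ATF site of amino acid response elements, was searched on both strands in RefSeq windows from 250 bases before to 50 bases after each annotated start (GRCh38.p14). It was present in 0.866% of 35116 windows and in windows of 1.08% of 27305 genes. Of the 27 members with a window, 3 held it: SLC1A3, SLC1A4 and SLC1A5, in 1 window each. Capitals mark the motif or its reverse complement, and each stretch reads 5′ to 3′ on the strand of the gene. The SLC1A4 stretch lies at chr2:64989279-64989410 on the plus strand, with the motif 7 bases before the start of 1 of its 2 windows. The SLC1A5 stretch lies at chr19:46784815-46784934 on the minus strand, with the motif 97 bases before the start of 1 of its 3 windows. Another SLC1A5 window, at chr19:46787244-46787543, lies further upstream and held no match, so the motif comes after another annotated start of the gene. The SLC1A3 stretch lies at chr5:36596338-36596457 on the plus strand, with the motif 220 bases before the start of 1 of its 3 windows. The SLC38A2 stretch lies at chr12:46372762-46372893 on the minus strand, from its only window, which held no match. Sequence outside the windows was not searched, so this does not show that SLC38A2 lacks the motif.
SLC1A4: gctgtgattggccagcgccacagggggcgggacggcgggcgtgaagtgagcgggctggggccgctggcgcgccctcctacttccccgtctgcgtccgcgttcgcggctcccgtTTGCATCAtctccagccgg
SLC1A5: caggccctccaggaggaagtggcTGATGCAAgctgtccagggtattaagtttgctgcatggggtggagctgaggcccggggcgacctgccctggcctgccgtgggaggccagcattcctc
SLC1A3: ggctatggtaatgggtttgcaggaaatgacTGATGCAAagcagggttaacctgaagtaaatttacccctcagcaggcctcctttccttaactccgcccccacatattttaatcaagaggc
SLC38A2: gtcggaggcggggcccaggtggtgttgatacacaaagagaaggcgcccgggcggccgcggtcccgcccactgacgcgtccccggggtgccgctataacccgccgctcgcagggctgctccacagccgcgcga

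The looser motif TGATGNAA, which includes the reverse complement of the first, was present in 3.62% of windows and 4.46% of genes. Of the 27 members with a window 6 held it, the 3 above and SLC38A1, SLC3A2 and SLC7A1. The E-box CACGTG was present in 7.26% of windows, 8.77% of genes and 8 members, SLC1A5, SLC1A7, SLC38A5, SLC38A7, SLC43A1, SLC7A5, SLC7A7 and SLC7A8. TTTGAA, the CHR element of many cell cycle genes, was present in 15.2% of windows, 18.2% of genes and 6 members. TTTCGCGC, an E2F site, was present in 0.515% of windows, in 0.63% of genes and in SLC3A2. GATGTCA was present in 4.22% of windows, in 5.18% of genes and in SLC38A5 and SLC38A6. A match is a run of letters and not a bound site, and binding was not measured.

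Of the 35 genes, 23 had a mean of at least 10 normalized counts and were tested. The test was limma on log2(normalized count + 1) across all 13255 genes with such a mean, and a call is an adjusted p-value under 0.05. In p21 ON 8 members rose, 1 fell and 14 did not pass. The count depended on the libraries and the tool: without p21 ON replicate 1, and likewise without p21 ON replicate 3, 3 were higher and 0 lower, and DESeq2 called 4 higher and 1 lower. Across all genes tested 10.5% were called higher and 12.7% lower, against 34.8% and 4.35% of the members. The median log2 fold change of the members was 0.19 with quartiles of 0.02 and 0.40, beside 0.0056 with quartiles of -0.14 and 0.17 for all genes. The groups did not overlap for 13 members with all p21 ON libraries on top and for 1 with all below, where 19.1% and 21.3% of all genes did so. Each member tested had a mean of at least 14.4 counts in each group, so none passed the filter through 1 group alone. The list itself was not tested.

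Changes were small. Apart from SLC1A4 the log2 fold changes of called members lay between -0.21 and 0.55. Scaling by library size alone moved the median of all genes from 0.0056 to 0.05 and the calls over all genes from 1393 higher and 1681 lower to 2034 and 1194, and it called 9 members higher and 1 lower. The 173 other tested genes with an SLC name had a median log2 fold change of 0.09, with 32 higher (18.5%) and 5 lower (2.89%).

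**Figure D1:**
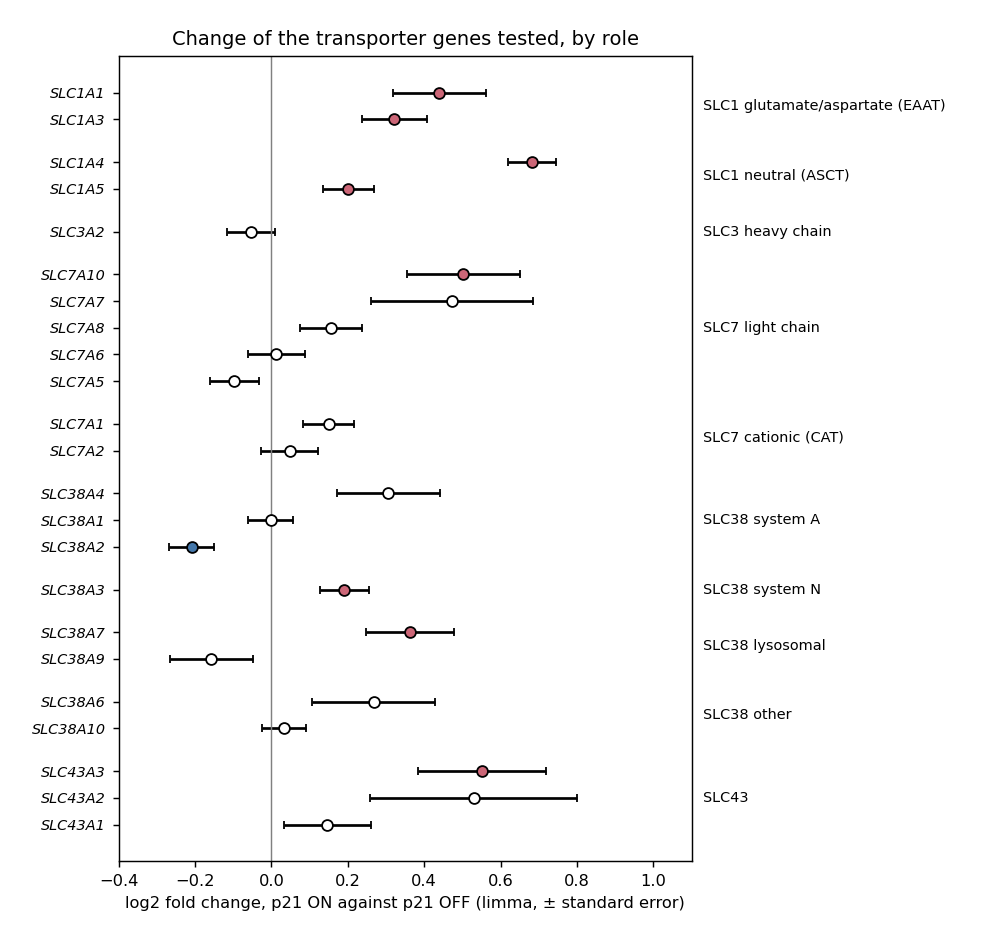
log2 fold change of p21 ON against p21 OFF for the 23 members tested, grouped by role, with bars for the limma standard error; filled points passed the adjusted p-value threshold of 0.05 and open points did not. The 8 filled points to the right of 0 include all 4 SLC1 genes tested, and SLC38A2 is the filled point to the left.

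The members were also described by their level. Among the 11 members with a mean of at least 500 normalized counts 3 rose and 1 fell, and their median log2 fold change was 0.03. All 6466 genes at that level had a median of -0.03, with 604 higher and 1173 lower. Among the 12 tested members under 500 counts 5 rose, none fell and the median was 0.34, while all 6789 genes tested at that level had a median of 0.06, with 789 higher and 508 lower. The difference between the classes of level was not tested.

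**Figure D2:**
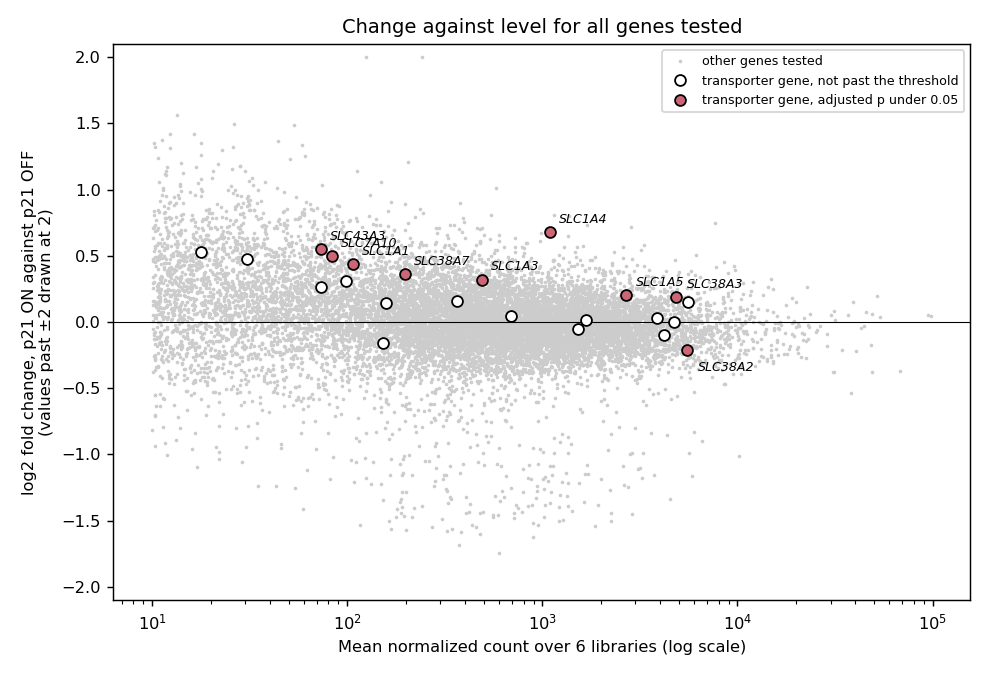
log2 fold change (vertical) against the mean normalized count over the 6 libraries (horizontal, log scale) for all 13255 genes tested in grey, with members as large circles, filled where the adjusted p-value was under 0.05. Among members with a mean of at least 500 counts SLC1A4 stands highest at 0.68, and the others lie between -0.21 and 0.20.

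All 4 tested SLC1 genes rose, 2 neutral exchangers and 2 glutamate carriers. SLC1A4 encodes ASCT1, an exchanger of alanine, serine, cysteine and threonine, and lies on chromosome 2 at 65215611 to 65250999 on the plus strand (GRCh37, as for all gene positions here). It had 814, 862 and 839.7 normalized counts in p21 OFF and 1324, 1382 and 1330.3 in p21 ON. The lowest p21 ON library stood well above the highest p21 OFF library, and the distance between the groups was many times the spread within either. The means were 838 ± 23.9 and 1345 ± 31.8 counts, a 1.60-fold rise with a log2 fold change of 0.68 (SE 0.06, limma adjusted p = 2.84e-07). SLC1A4 held its call in all 6 fits that left out a library and in all 11 other alternatives. Among 6466 genes whose mean reached 500 counts its log2 fold change was the ninth largest, with 8 genes above it. Of all genes tested 290 had a larger log2 fold change and 156 a lower adjusted p-value.

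SLC1A5 encodes ASCT2, the sodium-dependent glutamine exchanger, and lies on chromosome 19 at 47278140 to 47291851 on the minus strand. It had 2382, 2603 and 2529 counts in p21 OFF and 2631, 2985 and 3038 in p21 ON. The groups were close, since p21 ON replicate 1 was barely above the highest p21 OFF library. The log2 fold change was 0.20 (SE 0.07, limma adjusted p = 0.0353), a 1.15-fold rise. Without p21 OFF replicate 3 the adjusted p was 0.0518, without p21 ON replicate 2 it was 0.121 and without p21 ON replicate 3 it was 0.157, in a range of 0.0249 to 0.157 over libraries left out. An unnamed long noncoding RNA on the opposite strand overlaps 23.4% of its exonic length.

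SLC1A3 encodes EAAT1, a glutamate and aspartate carrier best known from astrocytes, on chromosome 5 at 36596690 to 36688436 on the plus strand. It had 407, 489.8 and 408 counts in p21 OFF and 555, 554 and 516 in p21 ON. All p21 ON libraries were above the p21 OFF libraries, of which replicate 2 stood apart from the other two. The log2 fold change was 0.32 (SE 0.09, limma adjusted p = 0.0118), a 1.25-fold rise. The call was lost without p21 ON replicate 1 (adjusted p = 0.0614, range 0.0041 to 0.0614 over libraries left out) and when a trend with gene length was removed (adjusted p = 0.0675, the highest of the other alternatives, which began at 0.00483).

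SLC1A1 encodes EAAT3, the glutamate carrier that is widespread outside the brain, on chromosome 9 at 4490468 to 4587469 on the plus strand. It had 87.9, 92.2 and 91.7 counts in p21 OFF and 130.4, 127 and 113 in p21 ON. The p21 OFF libraries were almost level, and all p21 ON libraries were higher. The log2 fold change was 0.44 (SE 0.12, limma adjusted p = 0.0152), a 1.36-fold rise. DESeq2 gave an adjusted p of 0.0639, the highest of alternatives that began at 0.00817, and without p21 ON replicate 1 it was 0.0777 in a range that began at 0.0252.

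SLC1A2 encodes EAAT2, the main glutamate carrier of the forebrain, and did not reach the filter. It had 0, 3.91 and 2.96 counts in p21 OFF and 15.1, 12.2 and 12.4 in p21 ON. In whole reads this was 9 over the p21 OFF libraries and 36 over the p21 ON libraries, all of the latter above the former. With no filter on low values its log2 fold change was 2.40 (limma adjusted p = 0.00236), a fit that rests on those 45 reads. SLC1A6 was at 0 in all libraries, and SLC1A7 had 2 reads in all.

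**Figure D3:**
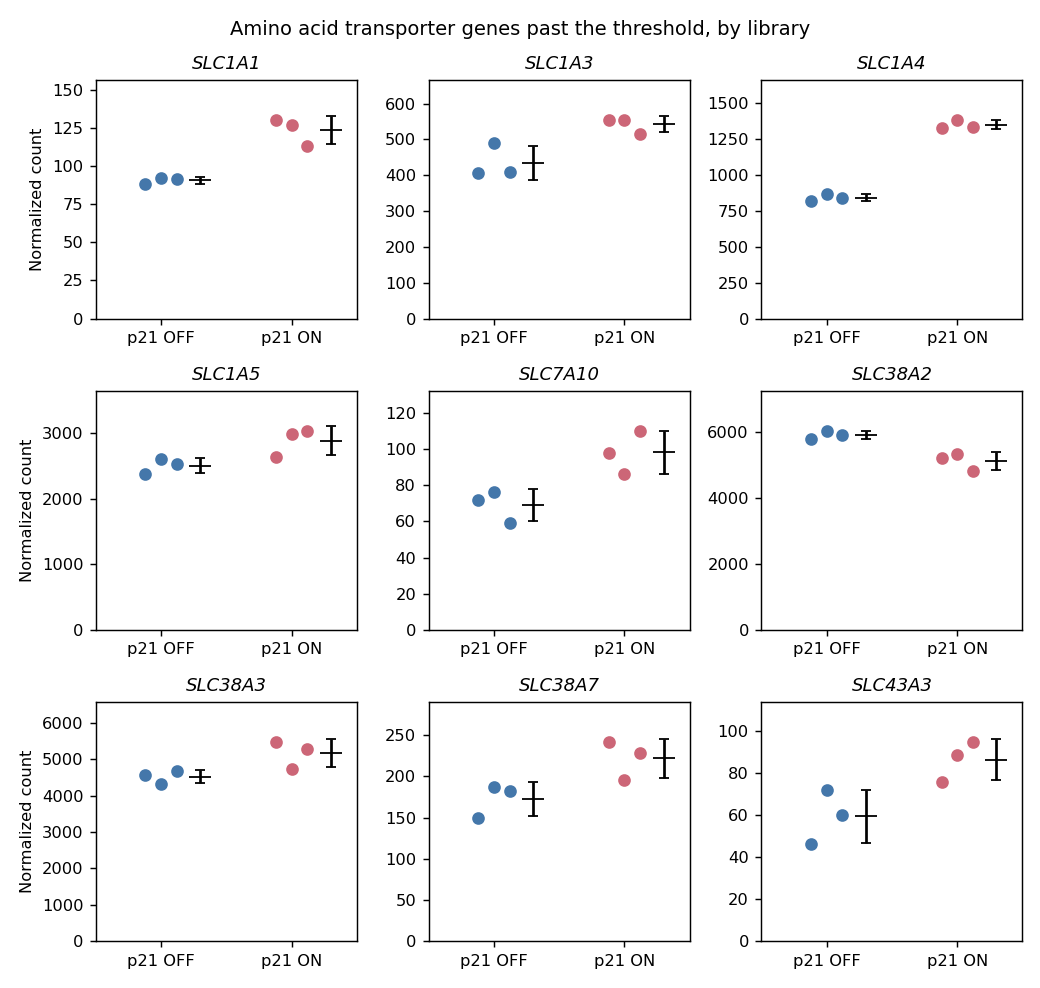
Normalized count per library (vertical axis, from 0) of the 9 members past the threshold, as points for p21 OFF and p21 ON, with a bar for each group's mean and whiskers for its SD (n = 3). The groups do not overlap in any panel; SLC1A4 runs from 814 to 862 counts in p21 OFF and from 1324 to 1382 in p21 ON, and SLC38A2 is the panel where p21 ON lies lower.

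The heavy chain and the main light chains at the cell surface did not pass the test. SLC3A2 encodes CD98hc, the heavy chain that several SLC7 light chains need, on chromosome 11 at 62623476 to 62656352. It had 1576, 1565 and 1508 counts in p21 OFF and 1424, 1558 and 1501 in p21 ON. The groups overlapped, and the log2 fold change was -0.05 (SE 0.06, limma adjusted p = 0.569). SLC7A5 encodes LAT1, which imports leucine and other large neutral amino acids, on chromosome 16 at 87863629 to 87903113. It had 3975, 4605 and 4452 counts in p21 OFF and 3994, 4193 and 3979.6 in p21 ON, with p21 OFF replicate 1 below all p21 ON libraries. Its log2 fold change was -0.10 (SE 0.06, limma adjusted p = 0.285). Without p21 OFF replicate 1 SLC7A5 was called lower (-0.16, adjusted p = 0.0253, range 0.0253 to 0.647 over libraries left out). The near-identical pseudogenes SLC7A5P1 and SLC7A5P2 could share its reads, so its count is uncertain.

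Within a library the ratio of SLC7A5 to SLC3A2, each per kb of exon, does not depend on library scaling. It was 3.38, 3.95 and 3.96 in p21 OFF and 3.76, 3.61 and 3.56 in p21 ON. The ratio was 3.76 ± 0.33 and 3.64 ± 0.11, which differed by -0.12 (p = 0.6 by an exact permutation test, two-sided, where 3 libraries against 3 cannot go below 0.1). Without p21 OFF replicate 1 the difference was -0.31 (p = 0.1 by the exact permutation test). That is again the lowest p this test can give, reached whenever the groups do not overlap. The level of the ratio depends on the lengths used: with those of the canonical transcripts it was 1.16 ± 0.102 and 1.12 ± 0.0326.

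Among the other light chains SLC7A10 rose. It encodes Asc-1, an exchanger of small neutral amino acids including D-serine, on chromosome 19 at 33699570 to 33716756 on the minus strand. Its libraries had 71.6, 76.6 and 59.1 counts in p21 OFF and 97.8, 86.5 and 110.2 in p21 ON. All p21 ON libraries were higher, with a log2 fold change of 0.50 (SE 0.15, limma adjusted p = 0.0206). DESeq2 gave an adjusted p of 0.0597, the highest of alternatives that began at 0.00696. The adjusted p was 0.0795 without p21 OFF replicate 3, 0.0699 without p21 ON replicate 1 and 0.109 without p21 ON replicate 3, in a range that began at 0.0146. The protein-coding gene LRP3 on the opposite strand overlaps 6.46% of the exonic length of SLC7A10.

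SLC7A6, a light chain that exchanges cationic against neutral amino acids, had 1506, 1847 and 1651 counts in p21 OFF and 1810.2, 1612 and 1617 in p21 ON. The groups overlapped fully, with a log2 fold change of 0.01 (SE 0.08, limma adjusted p = 0.92), and 44.4% of its exonic length overlaps SLC7A6OS on the opposite strand. SLC7A7, the related light chain whose loss causes lysinuric protein intolerance, had 25.5 ± 3.11 and 35.9 ± 5.33 counts, and SLC7A8, which encodes LAT2, had 345 ± 19.8 and 384 ± 7.99 counts. In both genes all p21 ON libraries were above all p21 OFF libraries, but neither passed (limma adjusted p = 0.113 and 0.175).

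Of the cationic carriers, which import arginine and lysine, SLC7A1 and SLC7A2 were tested. SLC7A1 encodes CAT1, on chromosome 13 at 30083551 to 30169825, and had 4735, 5712 and 5529 counts in p21 OFF and 6001, 5740.1 and 5925 in p21 ON. The groups did not overlap, though p21 OFF replicate 2 was almost level with the lowest p21 ON library. The log2 fold change was 0.15 (SE 0.07, limma adjusted p = 0.118). Scaling by library size alone called SLC7A1 higher (0.19, adjusted p = 0.038, in a range of 0.038 to 0.171 over the alternatives). SLC7A2 encodes CAT2 and had 624, 691 and 709.6 counts in p21 OFF and 728, 707 and 658 in p21 ON, which overlapped (log2 fold change 0.05, SE 0.07, limma adjusted p = 0.679).

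The SLC38 family held the only member that fell. SLC38A2 encodes SNAT2, the system A carrier of alanine, serine and glutamine that cells raise when amino acids are scarce, on chromosome 12 at 46751971 to 46766556 on the minus strand. It had 5793, 6032 and 5904 counts in p21 OFF and 5191, 5340.5 and 4819.6 in p21 ON. All p21 ON libraries were below all p21 OFF libraries. The means were 5909.9 ± 119 and 5117 ± 268 counts, a log2 fold change of -0.21 (SE 0.06, limma adjusted p = 0.0163). The adjusted p was 0.0601 without p21 OFF replicate 2, 0.0584 without p21 ON replicate 1 and 0.0928 without p21 ON replicate 3, in a range that began at 0.00201.

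SLC38A1 encodes SNAT1, also a system A carrier, and lies near SLC38A2 on chromosome 12, at 46576846 to 46663800 on the same strand. It had 4457, 4829 and 4906 counts in p21 OFF and 4782, 4826 and 4557 in p21 ON. These overlapped fully, with a log2 fold change of -0.0018 (SE 0.06, limma adjusted p = 0.986). SLC38A4, the third system A gene, lies on the same strand at 47158544 to 47226191 and had 87.2 ± 5.2 and 109 ± 15.9 counts. All its p21 ON libraries were higher, but it did not pass (log2 fold change 0.31, SE 0.14, limma adjusted p = 0.11).

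SLC38A3 encodes SNAT3, a system N carrier of glutamine, histidine and asparagine known from liver and brain, on chromosome 3 at 50242679 to 50258918 on the plus strand. It had 4576, 4311 and 4668 counts in p21 OFF and 5478, 4739 and 5273 in p21 ON. All p21 ON libraries were higher, p21 ON replicate 2 by little, and the log2 fold change was 0.19 (SE 0.06, limma adjusted p = 0.0399). The adjusted p was 0.0554 with no filter on low values, the highest of alternatives that began at 0.00976. It was 0.146 without p21 OFF replicate 2, 0.217 without p21 ON replicate 1 and 0.137 without p21 ON replicate 3, in a range that began at 0.00967. SLC38A5, the other system N gene, was under the filter, with 31 reads over the p21 OFF libraries and 11 over the p21 ON libraries (with no filter, limma adjusted p = 0.077).

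Of the 2 lysosomal members SLC38A7 rose and SLC38A9 did not pass. SLC38A7 encodes SNAT7, which exports glutamine and asparagine from the lysosome, on chromosome 16 at 58699013 to 58718674 on the minus strand. It had 149, 187 and 182 counts in p21 OFF and 242, 196 and 228 in p21 ON. All p21 ON libraries were higher, with a log2 fold change of 0.36 (SE 0.11, limma adjusted p = 0.0287). DESeq2 gave an adjusted p of 0.0649, the highest of alternatives that began at 0.0149. The adjusted p was 0.0827 without p21 OFF replicate 1, 0.148 without p21 ON replicate 1 and 0.107 without p21 ON replicate 3, in a range that began at 0.0205. SLC38A9, the lysosomal arginine sensor upstream of mTORC1, had 160.3 ± 5.34 and 144 ± 11.5 counts (log2 fold change -0.16, SE 0.11, limma adjusted p = 0.31), with overlapping groups.

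SLC38A10, a member of less settled function, had 3722, 3796 and 3986 counts in p21 OFF and 3869.6, 3847 and 4054 in p21 ON, with overlapping groups (log2 fold change 0.03, SE 0.06, limma adjusted p = 0.711). SLC38A6 had 66.2 ± 9.55 and 80.1 ± 13.1 counts (limma adjusted p = 0.244). SLC38A8 and SLC38A11 were at 0 in all libraries.

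In the SLC43 family 1 of 3 genes, the purine base carrier, passed the test. SLC43A3, the nucleobase carrier, lies on chromosome 11 at 57174427 to 57195053 on the minus strand. It had 46.5, 71.9 and 59.9 counts in p21 OFF and 75.7, 88.9 and 95 in p21 ON. The p21 ON libraries were all higher, with a log2 fold change of 0.55 (SE 0.17, limma adjusted p = 0.0247). DESeq2 gave an adjusted p of 0.0803, the highest of alternatives that began at 0.00938. The adjusted p was 0.0837 without p21 OFF replicate 1, 0.0722 without p21 ON replicate 2 and 0.118 without p21 ON replicate 3, in a range that began at 0.0117. A readthrough transcript on the same strand shares 29.9% of its exonic length. SLC43A1 (150.0 ± 13.6 and 166 ± 15.1 counts) and SLC43A2 (14.4 ± 2.88 and 21 ± 2.15 counts), both facilitated carriers of leucine and other large neutral amino acids, had adjusted p-values of 0.373 and 0.165 in limma. The log2 fold change of SLC43A2 was 0.53 (SE 0.27), close to that of SLC43A3, and all its p21 ON libraries were above all its p21 OFF libraries.

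The remaining members were nearly silent. SLC3A1 and SLC7A9, the 2 chains of the renal cystine carrier, had means of 2.01 and 2.03 counts over the 6 libraries. SLC7A3, SLC7A4 and SLC7A14 had 2 to 4 reads each in all libraries together, and SLC7A13 was at 0 in every library. With counts this low a change was not detectable.

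Levels of different genes were compared after division by exonic length. In p21 OFF SLC38A3 was highest at 1139 ± 46.7 normalized counts per kb. With these lengths SLC7A5 (912 ± 69.0) and SLC38A2 (908 ± 18.3) followed and were not separated, then SLC1A5 (752 ± 33.7) and SLC7A1 (693 ± 67.6), also not separated. SLC38A10 (485 counts per kb) and SLC38A1 (472) overlapped, as did SLC3A2 (242) and SLC7A6 (220). SLC1A4 had 121 ± 3.45 counts per kb in p21 OFF and 194 ± 4.58 in p21 ON. The lengths joined the exons of all transcripts of a gene, and the order depends on that choice. With canonical transcripts SLC38A3 stayed first at 1530.1 counts per kb in p21 OFF, but SLC38A2 (1233) lay above SLC7A5 (953) in every library, and SLC38A10 (854) above SLC38A1 (584). SLC3A2 came to 822 counts per kb, level with SLC38A10 and far above SLC7A6 (267), and SLC1A3 moved from rank 18 to rank 11.

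**Figure D4:**
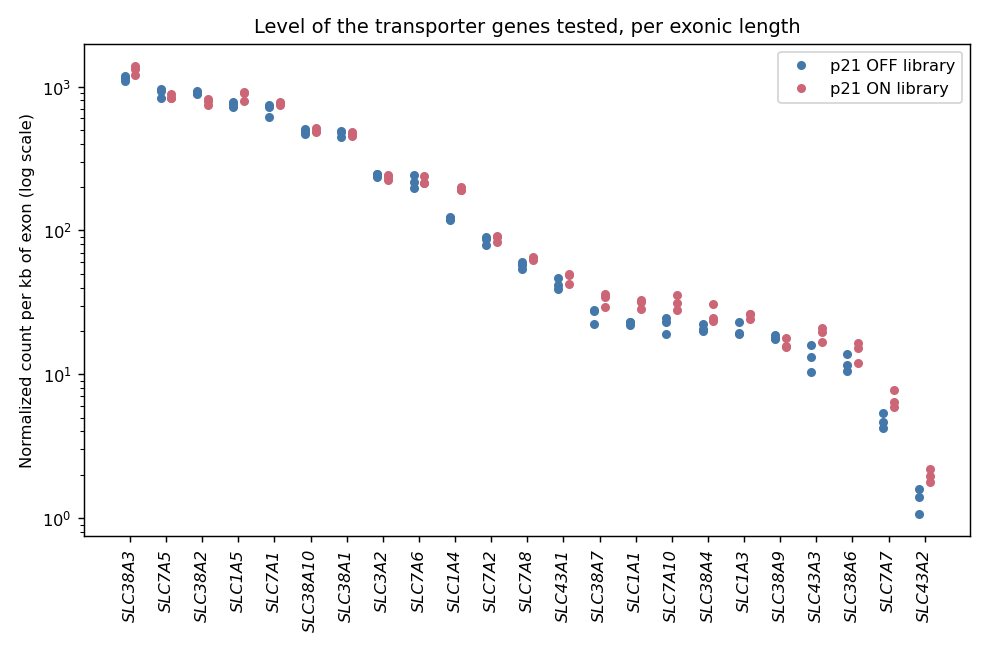
Normalized count per kb of exon (vertical, log scale) for the 23 members tested, ordered by their p21 OFF mean, with 1 point for each p21 OFF and p21 ON library. SLC38A3 is highest at 1139 counts per kb in p21 OFF, and the separated clusters of SLC1A4 points lie near 121 and 194.

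Of the summed per-kb level of the members, the SLC38 genes made up 49.0 ± 1.54% in p21 OFF and 47.7 ± 1.07% in p21 ON, and the SLC7 genes 31.7 ± 1.47% and 30.8 ± 0.285% (exact permutation test, p = 0.2 and 0.4). The SLC1 share was 14.5, 14.8 and 14.4% in p21 OFF and 15.7, 17.6 and 17.5% in p21 ON. All p21 ON libraries had the larger SLC1 share, higher by 2.38 percentage points (p = 0.1 by the same exact permutation test, its lower limit here). The SLC3 share was 3.86 ± 0.212% and 3.55 ± 0.176% and the SLC43 share 0.905 ± 0.0798% and 1.03 ± 0.0607% (exact permutation test, p = 0.2 for both). With canonical transcript lengths the SLC3 share was 9.54 ± 0.463% and 8.78 ± 0.432%. The whole sum was 6294 ± 235 and 6597 ± 34.6 counts per kb, with p = 0.1 in the same exact permutation test.

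Of the 6 members often given as ATF4 targets, SLC1A4 and SLC1A5 rose, SLC38A2 fell, and SLC7A1, SLC7A5 and SLC3A2 did not pass, with a median log2 fold change of 0.05. The 17 other members tested had 6 higher, none lower and a median of 0.27. The 2 sets differ in level, with a median of 3447 counts for the 6 and 158 counts for the 17. Members with a mean of at least 500 counts had a median log2 fold change of 0.03 and those under it 0.34. A difference between the sets thus cannot be told apart from one of level, and it was not tested. ATF4 mRNA itself was lower in p21 ON, at 4059, 3917 and 3429 counts in p21 OFF and 2830, 3088 and 3062 in p21 ON (log2 fold change -0.34, SE 0.07, limma adjusted p = 0.00171). ATF4 is mainly controlled in translation, and its protein was not measured here.

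ATF4 was 1 of 43 amino acid sensing genes in the table. The list holds leucine, arginine and methionine sensors and the Rag, Ragulator, GATOR, KICSTOR, folliculin, TSC, mTORC1 and GCN2 parts. Of the 42 tested, 2 were higher (4.76%) and 6 lower (14.3%), with a median log2 fold change of -0.016. The share called lower was near the 12.7% of all genes tested and below the 18.1% of genes with a mean of at least 500, so it is no result about the list. RHEB, the small GTPase that activates mTORC1, fell from 1657 ± 127 to 1284 ± 79.1 counts (log2 fold change -0.37, limma adjusted p = 0.00127). The Ragulator subunits LAMTOR5 (listed as HBXIP, -0.39) and LAMTOR4 (listed as C7orf59, -0.33) also fell, with limma adjusted p-values of 0.00469 and 0.0145. SEC13, a GATOR2 and nuclear pore subunit, was lower as well (-0.19, limma adjusted p = 0.0272). RRAGD (0.28, limma adjusted p = 0.00926), a Rag GTPase, and FLCN, folliculin, were the 2 called higher. LARS (-0.18, limma adjusted p = 0.0377), listed with the leucine, arginine and methionine sensors, was the remaining gene called lower. FLCN (0.23, limma adjusted p = 0.0462) and LARS are named only to complete the calls, a choice made after their values were seen.

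A second list held amino acid carriers outside the 5 families, in mitochondria, lysosomes, synaptic vesicles and the SLC6 and SLC36 families. Of its 34 genes with values, 21 were tested, 4 were higher (19.0%) and none lower (2 were lower at an unadjusted p under 0.05 in limma, and no alternative called any lower). The median log2 fold change was 0.07. The share called higher was near the 18.5% of other genes with an SLC name and above the 10.5% of all genes tested. Both of these sets include the genes of this list that have an SLC name. Those called lower were 2.89% of other genes with an SLC name and 12.7% of all genes tested. SLC25A18, a mitochondrial glutamate carrier, rose from 40.0 ± 3.46 to 60.8 ± 2.89 counts (log2 fold change 0.59, limma adjusted p = 0.0152). SFXN3, a mitochondrial serine carrier, rose from 752 ± 34.7 to 895 ± 19.9 counts (0.25, limma adjusted p = 0.0127). Its relative SFXN2 (0.39, adjusted p = 0.0353) and SLC17A7 (0.32, adjusted p = 0.0405), a vesicular glutamate carrier, were also higher in limma.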

How the data were processed

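Polyadenylated RNA of 6 SaOS-2 libraries was sequenced by the authors from stranded, single-end libraries, mapped to hg19 with STAR, counted on genes with HTSeq and scaled with DESeq2. Versions, and whether HTSeq used strand, are not given in the sources used here. The deposited signal is the normalized count of each gene and library. All values (100%) were whole reads within 0.02 reads once multiplied by the size factor, so reads were recovered for the count tests, and the totals were 12795490 to 21975045 reads. Replicates differed by more than sampling noise (chi-square per gene of 2.71 to 9.28), so none was merged.

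Groups came from the sample titles. The test was limma 3.58.1 with a mean-variance trend in R 4.3.3 on log2(normalized count + 1), two-sided, with no covariates. It covered the 13255 genes whose mean reached 10 and used the Benjamini-Hochberg adjustment. Fold changes on this scale understate those of low genes. Ratios and shares were compared by exact permutation. Alternatives were edgeR 4.0.16 (TMM or DESeq2 size factors) and DESeq2 1.42.0 on the recovered reads, other scalings, pseudocounts of 0.1 and 10, other filters, removal of a length trend, a replicate block, an adjusted p under 0.01, other gene lengths and each library left out. The canonical transcript length was chosen after seeing the data. The fitting was tested on simulated data.

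Members past the threshold or with a mean of at least 500 were given per library. From each surrounding list at most 6 genes were named, lowest adjusted p first, apart from FLCN and LARS, which were added after their values were seen. The members, lists and motifs were chosen with earlier results of these data known. Positions and lengths came from GENCODE 44 on GRCh37, in which 21251 of 23228 names were matched, some by RefSeq synonyms; this may not be the annotation the authors counted on. Promoters came from RefSeq on GRCh38.p14, found for 27 of 35 members. Protein sequences were not used here. Overlap of exons in the annotation was computed for both strands, since reads of overlapping genes cannot be told apart if strand was not used in counting.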

Additional observations from a re-analysis of the deposited data

How the results depend on the processing

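SLC1A4 kept its direction and its call under every alternative run; at an adjusted p under 0.01 it was the only member left, against 8 higher and 1 lower. At that threshold no member was lower, all genes gave 616 higher and 882 lower, the other carriers 0 higher and the sensing genes 1 higher and 3 lower. DESeq2 called 4 members, 1 other carrier and 1 sensing gene higher. Without the filter 2 other carriers and 1 sensing gene were higher, and scaling by library size alone called 6 sensing genes higher. Over the fits that left out 1 library, members higher ran from 3 to 7 and lower from 0 to 2, all genes from 692 to 1488 higher and from 888 to 1662 lower, other carriers higher from 1 to 5, and sensing genes from 0 to 4 higher and 3 to 6 lower. The SLC3 share differed by -0.31 percentage points, by -0.52 with the longest transcript as length and by -0.76 with the canonical one. The causes were not tested.

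Of the members not called, SLC38A1 had a log2 fold change of 0.042 under library-size scaling, and removal of the length trend gave -0.0075 for SLC38A10 and -0.023 for SLC7A6. With 1 library left out the log2 fold change ran from -0.044 to 0.025 for SLC38A1, from -0.0077 to 0.089 for SLC7A2 and from -0.058 to 0.089 for SLC7A6. These changes of sign took place without p21 OFF replicates 2 and 3 and p21 ON replicate 3 for SLC38A1, without p21 OFF replicate 1 for SLC7A2, and without the first replicate of either group for SLC7A6. None of these passed the test.

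The groups share replicate numbers, but same-numbered libraries did not deviate together (correlations of -0.057, -0.025 and -0.048), so the numbers were not taken as pairs. A replicate block gave 7 members higher and 1 lower, 1407 genes higher and 1513 lower, 6 other carriers higher, 3 sensing genes higher and 4 lower; SLC38A3 had an adjusted p of 0.0532 with it. With 3 libraries a group, changes of lowly counted members such as SLC43A2 could be seen only where large.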
